A study of Mus musculus with 4 samples.

Results

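The interferon-stimulated genes described here are 33 mouse genes that cells switch on after exposure to interferons, and all 33 were found by symbol among the 16230 genes of the deposited table. They were divided by role into the Ifit, Mx and Oas families (11 genes), the interferon-γ-inducible GTPases of the Gbp and Irg families together with Ifi47 (7), transcription factors (3), sensors of nucleic acids (3) and other effectors (9). RNA was sequenced from cells sorted as CD3+CD4+ T cells from spleens of Rag-/- mice, which cannot form T or B cells. Colitis had been induced by transfer of sorted naive CD4 T cells, and the spleens were taken 8 weeks after it. In the control group (2 libraries) the donor cells came from ERαfl/fl mice, whose Esr1 alleles, encoding estrogen receptor α, are flanked by loxP sites but intact. In the other group (2 libraries) they came from CD4CreERαfl/fl mice, which carry the same alleles and a Cre recombinase driven from Cd4, active in every cell that passes through a Cd4-expressing stage. The labels call these libraries deficient in ERα, and they are named Cre-labelled here. Both groups share the host, the transfer and the colitis, and no group without transfer was analysed here. The labels do not tie libraries to separate mice, so p-values rest on the spread between libraries alone, perhaps a technical one.

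Type I interferons, such as interferon-α and -β, signal through JAK1 and TYK2 to ISGF3, a complex that holds STAT2 and IRF9 and binds the interferon-stimulated response element (ISRE) in front of genes such as those of the Ifit, Mx and Oas families. Type II interferon, interferon-γ, signals through JAK1 and JAK2 to the gamma-activated site (GAS) and also induces IRF1. Guanylate-binding proteins and immunity-related GTPases are best known as products of the second route and act on membranes around intracellular pathogens. Th1 cells make interferon-γ, and T cells, macrophages and most other cells can respond to both kinds of interferon.

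The promoters of the members were searched for both response elements, and the sequences below show the ISRE in members that lay on opposite sides of the controls. RefSeq promoters (build GRCm38.p6, 250 bases before to 50 after a gene start) were matched for 26 of the 33 members, the others being Mx1, Mx2, Oas2, Gbp4, Zbp1, Usp18 and Rtp4. The ISRE core, spelled as GAAA, any 2 bases and GAAA again and searched on both strands, was present in 16 of the 31 promoters of these members (51.6%), against 3.44% of all 32851 promoters. By role it was present in 5 of 9 promoters of the Ifit, Mx and Oas families and 5 of 7 of the GTPases. In Oas1a, Irgm1, Gbp3, Bst2 and Isg15 neighbouring matches overlap each other, and in Ddx58 and Ifih1 the match lies after the gene start. Capitals mark the ISRE core in the 150 bases before the gene start of Oas1a, Igtp and Irgm1, all on the strand of the gene. Oas1a was higher in the Cre-labelled libraries, and Igtp and Irgm1 were lower there. When libraries were scaled to T cell genes Igtp and Irgm1 were higher, but by less than the median of all genes.
Oas1a (chr5:120907526-120907675, minus strand): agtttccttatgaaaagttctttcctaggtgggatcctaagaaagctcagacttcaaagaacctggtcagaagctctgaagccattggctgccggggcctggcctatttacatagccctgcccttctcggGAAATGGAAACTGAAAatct
Igtp (chr11:58199406-58199555, plus strand): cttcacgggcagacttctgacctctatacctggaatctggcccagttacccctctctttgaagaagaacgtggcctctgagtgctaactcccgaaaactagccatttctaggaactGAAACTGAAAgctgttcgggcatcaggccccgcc
Irgm1 (chr11:48871421-48871570, minus strand): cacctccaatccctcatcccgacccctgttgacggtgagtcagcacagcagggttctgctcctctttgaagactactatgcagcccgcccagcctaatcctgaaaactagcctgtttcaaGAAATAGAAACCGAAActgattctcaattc

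The most frequent form of the core among the members, GAAACTGAAA, or TTTCAGTTTC on the other strand, was taken from their own promoters, so its share describes them only. It was present in 9 of 31 member promoters (29.0%) and in 0.231% of all promoters. It was shared by 4 promoters of the Ifit and Oas families and 3 of the GTPases, and 30 bases around it are shown for 5 of these to compare the roles, with this form in capitals. The 30 bases of Ifit3 and Ifit3b are identical.
Ifit1 (chr19:34640794-34640823, plus strand): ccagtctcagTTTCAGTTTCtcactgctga
Ifit3 (chr19:34583397-34583426, plus strand): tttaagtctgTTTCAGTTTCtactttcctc
Ifit3b (chr19:34607793-34607822, plus strand): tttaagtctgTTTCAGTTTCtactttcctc
Gbp3 (chr3:142559989-142560018, plus strand): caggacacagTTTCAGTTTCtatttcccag
Gbp7 (chr3:142530273-142530302, plus strand): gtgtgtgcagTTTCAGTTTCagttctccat

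The GAS, spelled TTCNNNGAA and identical on both strands, was present in 6 of 31 member promoters (19.4%) and 8.30% of all promoters. It was found in 2 of 9 promoters of the Ifit, Mx and Oas families and in 2 of 7 of the GTPases, and in Igtp it starts 45 bases before the gene start, just ahead of the ISRE core at 34 bases. Both motifs can overlap, as they do in Bst2, a match of letters is not a bound site, and the promoters of Oasl2 and Ifi47 held neither motif in this window.

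The sorted cells differed between the groups in more than interferon-stimulated genes. Values are FPKM, which scale fragments to transcript length and library size, and an estimated 500000 to 694000 fragments lay behind each library, so that for a transcript of 2000 bases 1 fragment gave 0.72 to 1.0 FPKM, and a count of 0 allows up to 3 fragments, or 2.16 to 3.0 FPKM (counting error only). Esr1 had 0.23 FPKM in control 1 and 1.96 in Cre-labelled library 2 and was listed at 0 in the others, which does not check the labels. All 23 T cell markers, which include those used for the sort, had lower values in both Cre-labelled libraries than in both controls (summed level 421 and 470 FPKM against 1620 and 2104), and Ctla4 was listed at 0 in both Cre-labelled libraries. Of 22 macrophage markers, 20 were higher without overlap (3053 and 3586 against 129.5 and 589 FPKM). Cd14, Adgre1, Mertk, Fcgr1 and Marco were listed at 0 in control 1 and none in the other libraries. Of all genes, 23.2% were higher and 25.7% lower without overlap. Values were higher without overlap for 8 of 12 markers of conventional dendritic cells, 6 of 10 of NK cells, 6 of 12 of neutrophils, 2 of 10 of plasmacytoid dendritic cells, 2 of 11 erythroid markers and 2 of 4 tested B cell markers. Lower without overlap were 2, 1, 0, 3, 0 and 1 of the same lists. In bulk RNA, fewer cells of a type and less RNA per cell cannot be told apart. The part of these cells in the results below was not tested.

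Of the 33 members, 32 had a mean of at least 1 FPKM and were tested, Oasl1 being the exception. In limma on log2(FPKM + 1), with Benjamini-Hochberg adjustment over 12896 genes, 0 members passed an adjusted p of 0.05 in either direction, where 0.0543% of all genes did (0.0155% higher and 0.0388% lower). At an unadjusted p under 0.05, 4 members had higher values and 2 lower ones, against 9.10% and 6.80% of all genes. The smallest adjusted p among the members was 0.185. In 12 members both Cre-labelled libraries lay above both controls and in 5 both lay below, where 23.2% and 25.7% of all genes did. With voom weights on recovered fragments, 0 of 18 members with 1 transcript passed, where 2.60% of all genes did (1.96% higher and 0.636% lower). In that fit 6 of the 18 had an unadjusted p under 0.05, against 1312 of 7544 genes. They were 5 of the Ifit, Mx and Oas families and 1 GTPase. When libraries were scaled to T cell genes, 25 of 32 members and 9540 of all genes were called higher and the median log2 fold change of all genes moved from -0.07 to 2.20. Directions are therefore given on the unscaled values, and a value that flips under this scaling is to be read against that median.

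**Figure D1:**
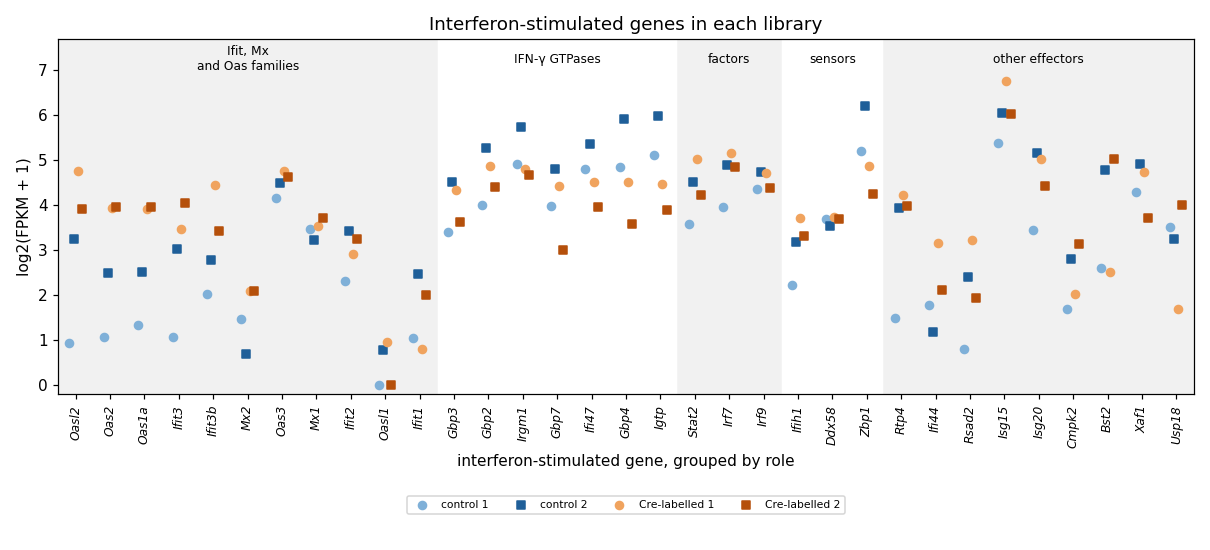
Level of each of the 33 interferon-stimulated genes on log2(FPKM + 1) (vertical axis) in each library (1 point per library, circles for library 1 and squares for library 2 of a group), grouped by role and ordered by fold change within a role. The points of the Cre-labelled libraries lie above both controls for Oasl2, Oas2, Oas1a, Ifit3 and Ifit3b and below both for Ifi47, Gbp4 and Igtp. When scaled to T cell genes, Ifi47, Gbp4 and Igtp turn higher, but by less than the median of all genes (2.20).

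The members of the Ifit, Mx and Oas families had mostly higher values in the Cre-labelled libraries. Of 10 tested members, 8 lay above both controls without overlap and 0 below (23.2% and 25.7% of all genes). Their median log2 fold change was 1.27, against -0.07 over all genes tested (3.33 against 2.20 when scaled to T cell genes). Summed over the 11 genes, the level was 41.4 and 76.7 FPKM in controls 1 and 2 and 133 and 119 FPKM in Cre-labelled libraries 1 and 2. None passed in limma, and the median ranged from 0.91 to 1.33 when each library was left out in turn. Oas1b, Oas1c and Oas1g, which are outside the members, overlapped between the groups. Their log2 fold changes were -0.39, 0.16 and -1.04.

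Oas enzymes make 2′,5′-oligoadenylates when they meet double-stranded RNA, and these activate RNase L to cut RNA. Oas2 (NCBI gene 246728; chromosome 5, 120730333 to 120749886 in GRCm38, as for all genes below) had 1.10 and 4.62 FPKM in controls 1 and 2 and 14.32 and 14.70 FPKM in the Cre-labelled libraries. The latter libraries were close to each other and both were above the controls, of which control 1 was the lower. The log2 fold change was 2.17 ± 0.58 (SE; adjusted p = 0.191 in limma), and with voom weights 2.57 ± 0.65 (adjusted p = 0.0639), the smallest adjusted p of a member in that fit. The estimated fragments behind Oas2 were 3 and 11.8 (controls) and 27.7 and 31.3 (Cre-labelled). Oas1a (NCBI gene 246730; chromosome 5, 120896256 to 120907544) showed nearly the same levels, at 1.52 and 4.71 FPKM in controls and 14.15 and 14.64 FPKM in the Cre-labelled libraries. Its log2 fold change was 2.02 ± 0.53 (SE; adjusted p = 0.185 in limma), but 57.6% of the 50-base runs of its longest transcript also occur in Oas1g, so its value is uncertain. Oas1g itself had 8.98 FPKM in control 2 and 1.36 FPKM in Cre-labelled library 2, and both other libraries list it at 0. Oas3 had the highest control levels among the members of these families, with 16.79 and 21.69 FPKM. In the Cre-labelled libraries it had 25.95 and 23.58 FPKM. Oas1b, outside the members, was higher in controls, at 50.51 and 44.11 FPKM. Its groups did not overlap, but the difference was small (log2 difference 0.36 ± 0.34, SE; adjusted p = 0.634 in limma, and 0.18 without control 1).

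Oasl2, an Oas-like protein that carries ubiquitin-like domains, had the largest fold change of all members. Oasl2 (NCBI gene 23962; chromosome 5, 114896926 to 114912245) had 0.91 and 8.59 FPKM in controls 1 and 2 and 25.95 and 14.21 FPKM in Cre-labelled libraries 1 and 2. The controls were as far apart as the groups: control 2 exceeded control 1 by 2.33 on the log2 scale and the group difference was 2.24 ± 0.83 (SE; adjusted p = 0.287 in limma). Without control 1 the log2 fold change was 1.08, and without control 2 it was 3.41. Its relative Oasl1 had 0.71 FPKM in control 2 and 0.94 FPKM in Cre-labelled library 1, 1 estimated fragment each, and was listed at 0 elsewhere.

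Ifit proteins bind foreign RNA and block its translation, and their genes lie together on chromosome 19. Ifit3 (NCBI gene 15959; 34583119 to 34588982) had 1.10 and 7.10 FPKM in controls and 10.15 and 15.59 FPKM in the Cre-labelled libraries (log2 difference 1.72 ± 0.72, SE; adjusted p = 0.331 in limma). Without control 1 the difference of Ifit3 was 0.75 and without control 2 it was 2.70. Its near copy Ifit3b (NCBI gene 667370; 34607530 to 34613403) had 3.10 and 5.87 FPKM in controls and 20.75 and 9.70 FPKM in the other libraries (1.52 ± 0.54, SE; adjusted p = 0.27 in limma, and 1.01 without Cre-labelled library 1). Of the 50-base runs of Ifit3, 51.2% occur in Ifit3b, so fragments may be divided between both genes by estimate. Within the Cre-labelled libraries the one with more Ifit3 had less Ifit3b, whereas both genes were higher in control 2 than in control 1. The part of this division in the values was not tested. Ifit1 and Ifit2 lie in the same cluster and overlapped between the groups. Ifit1 had 1.08 and 4.55 FPKM in controls and 0.75 and 2.99 FPKM in the Cre-labelled libraries, and Ifit2 had 3.96 and 9.82 FPKM and 6.52 and 8.56 FPKM. In both, library 2 of each group had more than library 1.

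Mx proteins are dynamin-like GTPases that trap viral components. Mx1 differed by less than its SE, with 10.07 and 8.44 FPKM in controls and 10.55 and 12.19 FPKM in the Cre-labelled libraries (log2 difference 0.27 ± 0.37, SE; adjusted p = 0.754 in limma, and 0.16 without control 2). Mx2 had 1.77 and 0.62 FPKM in controls and 3.28 and 3.27 FPKM in the others, on an estimated 3, 1, 4 and 4.4 fragments (log2 difference 1.01, and 0.63 without control 2). Neither showed control 2 above control 1, in contrast to the other 8 tested members of these families, all of which were higher in control 2.

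The interferon-γ-inducible GTPases had the opposite tendency on unscaled values, and were all higher when libraries were scaled to T cell genes. Of 7 tested members, 4 lay below both controls without overlap and 0 above (25.7% and 23.2% of all genes), with a median log2 fold change of -0.67 (1.83 when scaled to T cell genes, under the 2.20 of all genes on that scale). Summed over the 7 genes, the level was 157 and 300.3 FPKM in controls 1 and 2 and 160 and 103 FPKM in Cre-labelled libraries 1 and 2. The sum of control 1 thus lay between those of the other group. None passed in limma, and the median was -1.09, -0.25, -1.13 and -0.51 without control 1, control 2 and Cre-labelled libraries 1 and 2.

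Igtp, an immunity-related GTPase also known as Irgm3 that guards vacuole membranes, had the largest difference among them. Igtp (NCBI gene 16145; chromosome 11, 58199556 to 58207592) had 33.93 and 61.88 FPKM in controls and 21.09 and 13.91 FPKM in the Cre-labelled libraries. The groups did not overlap, and an estimated 15.5 fragments or more lay behind each value. Igtp had a log2 fold change of -1.37 ± 0.43 (SE, adjusted p = 0.235 in limma) and -1.43 ± 0.46 with voom weights (adjusted p = 0.133). When scaled to T cell genes its log2 fold change was 1.22, under the 2.20 of all genes on that scale. Exons of Igtp overlap those of its neighbour Irgm2 on the same strand over 162 bases. Of the 50-base runs of Igtp, 12.3% occur in Irgm2, which leaves its value less certain. Irgm2 itself had 12.85 and 27.17 FPKM in controls and 15.26 and 2.78 FPKM in the others. Irgm1, which acts in autophagy and in the survival of T cells after interferon-γ, had 29.19 and 52.42 FPKM in controls and 27.12 and 24.41 FPKM in the Cre-labelled libraries (log2 difference -0.59 ± 0.39, SE; adjusted p = 0.51 in limma, and 2.01 when scaled to T cell genes). Only control 2 stood apart, and without it the log2 fold change of Irgm1 was -0.18 (-1.0 without control 1). Ifi47, an immunity-related GTPase on the same chromosome, had 26.85 and 40.03 FPKM in controls and 21.80 and 14.47 FPKM in the others (-0.85 ± 0.39, SE; adjusted p = 0.366 in limma, and 1.73 when scaled to T cell genes).

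Guanylate-binding proteins assemble on pathogen membranes and feed inflammasome activation. Gbp4 (NCBI gene 17472; chromosome 5, 105115767 to 105139586) had 27.80 and 59.17 FPKM in controls and 21.81 and 11.05 FPKM in the Cre-labelled libraries, without overlap (log2 difference -1.33 ± 0.52, SE; adjusted p = 0.308 in limma, and 1.25 when scaled to T cell genes). Without control 2 the difference of Gbp4 was -0.80 and without Cre-labelled library 2 it was -0.87. The value of Gbp4 scaled to T cell genes lay under the 2.20 of all genes on that scale. The other 3 lie in a cluster on chromosome 3 and overlapped between the groups. Gbp2 had 15.05 and 37.79 FPKM in controls and 28.21 and 20.22 FPKM in the others, and Gbp3 had 9.55 and 21.85 FPKM and 19.12 and 11.41 FPKM, so that in both the Cre-labelled libraries lay between the controls. Gbp7 had 14.72 and 27.16 FPKM in controls and 20.60 and 7.09 FPKM in the others. Gbp4 and Gbp7 each share 12.8% of their 50-base runs with other genes, which leaves their values less certain.

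**Figure D2:**
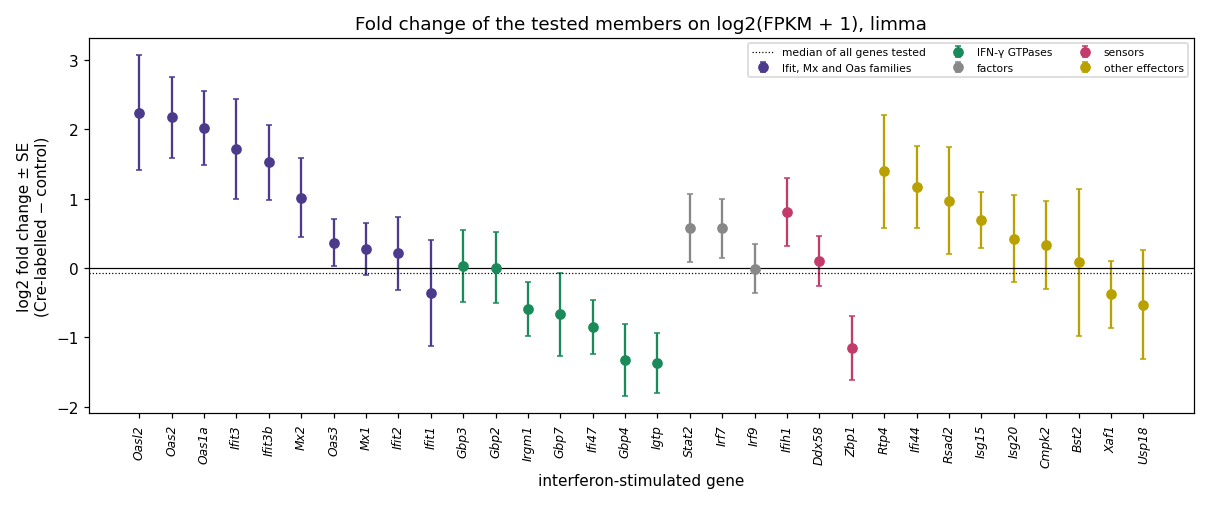
Log2 fold change of the 32 tested members (Cre-labelled libraries minus control, on log2(FPKM + 1), points) with its SE from limma (bars), coloured by role; the dotted line is the median of all genes tested. The Ifit, Mx and Oas families reach from -0.36 to 2.24 and the GTPases from -1.37 to 0.03. When scaled to T cell genes all members of both roles are above 0, and the median of all genes is 2.20.

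Within each library the medians of these roles lay closer together in the Cre-labelled group. The median level on log2(FPKM + 1) was 1.33 for the Ifit, Mx and Oas families and 4.80 for the GTPases in control 1, and 2.78 and 5.36 in control 2. Cre-labelled library 1 had medians of 3.53 and 4.51, and library 2 of 3.72 and 3.90. The GTPases thus lay above the families by 3.47 and 2.58 in controls and by 0.98 and 0.18 in the Cre-labelled libraries. The gap between the median fold changes of the roles was -1.94, and it stayed between -2.54 and -1.5 over all alternatives run, scaling to T cell genes included. No test was made of it, because the members were chosen with results known.

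**Figure D3:**
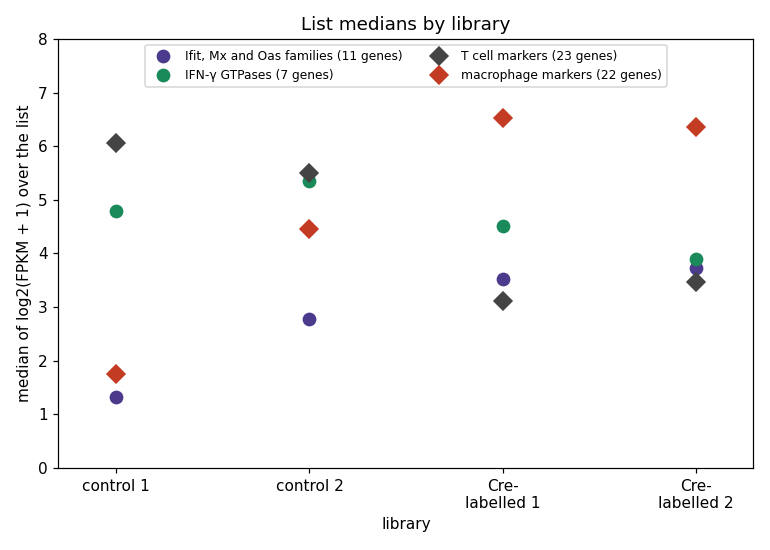
Median of log2(FPKM + 1) (vertical axis) over the genes of 4 lists in each library; circles are interferon-stimulated genes and diamonds are cell type markers. The medians of the Ifit, Mx and Oas families are 1.33 and 2.78 in controls and 3.53 and 3.72 in the Cre-labelled libraries; macrophage markers are lowest and T cell markers highest in control 1.

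Part of the spread lay between the controls. Control 2 had more than control 1 for 27 of 32 tested members, against 50.2% of all genes (median difference 0.95, log2). Macrophage markers were higher in control 2 for 21 of 22 genes, by a median of 2.46, and T cell markers were lower in control 2 for most genes, by a median of 0.35. All 7 GTPases had more in control 2 (median difference 0.85), and all 7 were also higher in Cre-labelled library 1 than in library 2, by a median of 0.57, against 43.9% of all genes. That combination was found for 21.5% of all genes. The Ifit, Mx and Oas families had 8 of 10 higher in control 2, by a median of 1.15, and did not separate the Cre-labelled libraries (4 higher in the first and 6 in the second, median difference 0.04). Control 1, the library with the lowest macrophage markers, also had the lowest median of these families. The part of other cells in these differences was not tested.

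**Figure D4:**
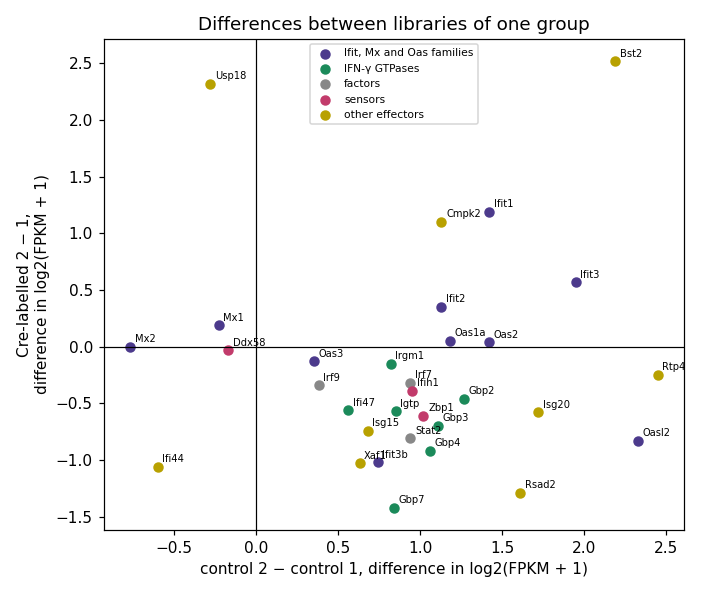
Difference between the libraries of a group on log2(FPKM + 1) for the 32 tested members, controls on the horizontal axis and Cre-labelled libraries on the vertical axis, coloured by role. All 7 GTPases lie at the lower right, with more in control 2 and in Cre-labelled library 1, and Bst2 lies far to the upper right.

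The transcription factors of the response overlapped between the groups, as did 6596 of all 12896 genes tested. Irf7, the factor that amplifies interferon-α production, had 14.56 and 28.94 FPKM in controls and 34.83 and 27.78 FPKM in the Cre-labelled libraries. Stat2 and Irf9, the parts of ISGF3 that are specific to the type I route, had 10.98 and 22.01 and 19.68 and 25.85 FPKM in controls. In the Cre-labelled libraries Stat2 had 31.91 and 17.76 FPKM and Irf9 25.38 and 19.90 FPKM. For all 3 factors control 1 had the lowest value of the 4 libraries.

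Among the sensors, Zbp1 differed from the 2 RNA helicases. Zbp1 (NCBI gene 58203; chromosome 2, 173206612 to 173218959), which senses Z-form nucleic acids and can trigger necroptosis, had 35.71 and 73.21 FPKM in controls and 28.15 and 18.06 FPKM in the Cre-labelled libraries, without overlap. Its log2 fold change was -1.15 ± 0.46 (SE, adjusted p = 0.315 in limma), but -0.64 without control 2. When scaled to T cell genes it was 1.46, under the 2.20 of all genes on that scale. The order over the libraries was that of Igtp: control 2 was highest and Cre-labelled library 2 lowest. Ddx58, which encodes RIG-I, had 12.01 and 10.56 FPKM in controls and 12.33 and 12.05 FPKM in the others, a difference of 0.10 ± 0.36 (SE) on the log2 scale. Ifih1, which encodes the long double-stranded RNA sensor MDA5, had 3.70 and 8.09 FPKM in controls and 12.13 and 9.0 FPKM in the others (0.81 ± 0.49, SE; adjusted p = 0.478 in limma, with 0.33 without control 1 and 1.29 without control 2).

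The other 9 effectors had a median log2 fold change of 0.42. It ran from -0.24 without control 1 to 1.02 without control 2 (0.63 and 0.71 without Cre-labelled libraries 1 and 2). Of these effectors 7 overlapped between the groups, and 2 were higher and 0 lower without overlap (23.2% and 25.7% of all genes). Rtp4, which inhibits viral replication, had 1.83 and 14.43 FPKM in controls and 17.88 and 14.91 FPKM in the Cre-labelled libraries. Only control 1 stood apart: the log2 fold change of Rtp4 was 1.39 ± 0.82 (SE; adjusted p = 0.466 in limma) and 0.17 without control 1. Rtp4 shares 13.6% of its 50-base runs with Gm45338, which leaves its value less certain. Ifi44 had 2.45 and 1.27 FPKM in controls and 8.02 and 3.33 FPKM in the others (1.16 ± 0.59, SE; adjusted p = 0.41 in limma, and 0.63 without Cre-labelled library 1). Between 2.4 and 11.7 estimated fragments lay behind each value of Ifi44. Isg15, a ubiquitin-like protein that is conjugated to other proteins, was among the highest members, with 40.69 and 65.63 FPKM in controls and 108.43 and 64.72 FPKM in the Cre-labelled libraries. Usp18, the protease that removes Isg15 and dampens the type I receptor, had 10.52 and 8.49 FPKM in controls and 2.25 and 15.18 FPKM in the others, the widest split between the Cre-labelled libraries after Bst2.

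Bst2, a membrane tether that holds virus particles and that is also high on plasmacytoid dendritic cells, was high in library 2 of both groups. It had 5.10 and 26.74 FPKM in controls 1 and 2 and 4.73 and 31.87 FPKM in Cre-labelled libraries 1 and 2, on an estimated 2.8, 14, 1.9 and 13.9 fragments. Siglech, a receptor of plasmacytoid dendritic cells, had 0.65 and 12.22 FPKM and 5.51 and 12.20 FPKM in the same libraries. The list median of log2(FPKM + 1) for that cell type, over 10 genes that include Bst2, was 1.99, 3.48, 2.54 and 3.59. Of these genes 9 were higher in control 2 than in control 1 (50.2% of all genes). Between the Cre-labelled libraries 6 were higher in library 2 and 4 in library 1 (the latter 43.9% of all genes). The part of these cells was not tested.

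The remaining effectors were Isg20, an exonuclease, Rsad2, which encodes the antiviral enzyme viperin, its neighbour Cmpk2, a mitochondrial nucleotide kinase, and Xaf1, a regulator of cell death. Isg20 had 9.90 and 34.95 FPKM in controls and 31.43 and 20.63 FPKM in the Cre-labelled libraries. Rsad2 had 0.75 and 4.34 FPKM in controls and 8.37 and 2.82 FPKM in the others. Cmpk2 had 2.22 and 6.05 FPKM and 3.09 and 7.76 FPKM, and Xaf1 18.55 and 29.27 FPKM and 25.76 and 12.12 FPKM. All 4 had more in control 2 than in control 1 (50.2% of all genes) and overlapped between the groups (6596 of 12896 genes).

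Upstream of these genes, 4 of 21 interferon genes were analysed here, and 1 of them, Ifng, had a mean of at least 1 FPKM. The directions of this and the following pathway genes are on unscaled values. When libraries were scaled to T cell genes 88 of 97 were called higher, as were 9540 of all 12896 genes. Ifna2 and Ifna4 were above 0 in control 2 alone, at 2.76 and 2.43 FPKM, and Ifnz was listed at 0 in all libraries. The values of Ifna2 and Ifna4 rest on an estimated 1.9 and 0.9 fragments, and a count of 0 allows up to 3. Ifng, the ligand of the type II route, had 58.87 and 60.48 FPKM in controls and 15.05 and 4.51 FPKM in the Cre-labelled libraries (log2 difference -2.69 ± 0.56, SE; adjusted p = 0.148 in limma). With voom weights its log2 fold change was -2.76 (adjusted p = 0.0436). The estimated fragments behind Ifng were 49.4 and 48.1 (controls) and 9.1 and 3.0 (Cre-labelled). Ifng was about level between the controls, whereas all 7 GTPases were higher in control 2. Scaled to T cell genes, the log2 fold change of Ifng was -0.14, under the 2.20 of all genes on that scale.

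Of the receptors and kinases, 0 of 9 tested genes passed in limma in either direction (1 higher and 0 lower at an unadjusted p under 0.05, against 9.10% and 6.80% of all genes). Without overlap 5 were higher and 1 lower, against 23.2% and 25.7% of all genes. Ifnar1, a chain of the type I receptor, had 182 and 144 FPKM in controls and 170 and 179 FPKM in the Cre-labelled libraries. Ifngr1, the ligand-binding chain of the type II receptor, had 32.12 and 43.01 FPKM in controls and 46.62 and 70.92 FPKM in the others (0.62 ± 0.36, SE; adjusted p = 0.456 in limma, with 0.41 without control 1 and 0.32 without Cre-labelled library 2). Ifngr2, its partner, had 34.21 and 34.08 FPKM and 55.33 and 47.32 FPKM. Il10rb, a chain shared by the receptors of interferon-λ and IL-10, had 13.01 and 16.06 FPKM and 31.97 and 31.58 FPKM (adjusted p = 0.223 in limma). Without scaling, these receptor chains had either overlapping or higher values where Ifng was lower.

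The other factors gave no call among 6 tested genes in limma (1 higher and 0 lower at an unadjusted p under 0.05, against 9.10% and 6.80% of all genes). Irf1, the factor induced by interferon-γ, had 60.89 and 90.56 FPKM in controls and 52.27 and 46.07 FPKM in the others, without overlap. Its log2 fold change was -0.59 ± 0.33 (SE, adjusted p = 0.441 in limma), and -0.31 without control 2. When scaled to T cell genes it was 2.06, under the 2.20 of all genes on that scale. Irf8, a factor of myeloid cells, had 1.5 and 15.74 FPKM and 28.54 and 35.64 FPKM (2.35 ± 0.89, SE; adjusted p = 0.299 in limma, with 0.97 without control 1 and 3.72 without control 2). Nmi, a partner of STAT proteins, had 25.29 and 35.56 FPKM and 19.47 and 12.28 FPKM (adjusted p = 0.341 in limma). The values of Irf1 and Nmi followed the order of Igtp over the libraries, and those of Irf8 the order of the macrophage markers between groups.

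Among 8 tested brakes on the pathway, 0 passed in limma, 1 was higher and 2 were lower at an unadjusted p under 0.05 (9.10% and 6.80% of all genes), and 2 were higher and 4 lower without overlap (23.2% and 25.7% of all genes). Socs1, the feedback inhibitor of JAK kinases that interferon-γ induces, had 7.15 and 7.50 FPKM in controls and 1.49 FPKM in Cre-labelled library 2, and library 1 lists it at 0. Its log2 fold change was -2.40 ± 0.63 (SE; adjusted p = 0.185 in limma), and -4.22 with a pseudocount of 0.1. Scaled to T cell genes it was -0.88, under the 2.20 of all genes on that scale. The estimated fragments behind Socs1 were 14.4 in each control and 0 and 2.4 in Cre-labelled libraries 1 and 2. Ptpn2, a phosphatase of JAK kinases, had 32.71 and 50.07 FPKM and 16.00 and 18.79 FPKM (adjusted p = 0.228 in limma). Ptpn6, a phosphatase abundant in myeloid cells, had 43.92 and 51.48 FPKM and 127.66 and 117.08 FPKM (adjusted p = 0.148 in limma).

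Genes that induce interferon included endosomal sensors with higher values. Of 13 tested genes 0 passed in limma, with 3 higher and 1 lower at an unadjusted p under 0.05 (9.10% and 6.80% of all genes). Without overlap 5 were higher and 2 lower (23.2% and 25.7% of all genes). The lower gene at that p was Tmem173, with 29.81 and 30.36 FPKM in controls and 10.99 and 17.27 FPKM in the Cre-labelled libraries. Tlr7, a sensor of single-stranded RNA, was listed at 0 in control 1 and had 3.15 FPKM in control 2 and 18.10 and 13.13 FPKM in the Cre-labelled libraries (adjusted p = 0.179 in limma). Unc93b1, the chaperone of the endosomal receptors, had 2.15 and 21.05 FPKM and 80.82 and 94.09 FPKM (adjusted p = 0.186 in limma). Tlr9, a sensor of DNA that neither control showed (listed at 0), reached 4.57 and 2.57 FPKM (adjusted p = 0.205 in limma). Macrophage markers had a median log2 fold change of 3.64, and their part in these values was not tested.

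Stimulated genes outside the 33 members lay on both sides of the controls. Of 39 tested genes of the type I list, 11 were higher and 6 lower without overlap (23.2% and 25.7% of all genes), with a median log2 fold change of 0.04. In limma 0 passed, with 6 higher and 2 lower at an unadjusted p under 0.05 (9.10% and 6.80% of all genes). The higher end held Ifi204, a nuclear DNA sensor of myeloid cells, at 1.78 and 2.09 FPKM in controls and 24.33 and 47.84 FPKM in the Cre-labelled libraries (3.59 ± 0.47, SE; adjusted p = 0.0935 in limma and 0.0346 with voom weights). Ifitm2, a membrane protein that blocks virus entry, had 34.07 and 44.83 FPKM and 114.49 and 114.80 FPKM (adjusted p = 0.139 in limma). The lower end held Ly6a, the interferon-induced surface protein Sca-1 of activated T cells, at 79.21 and 141.98 FPKM in controls and 27.53 and 23.02 FPKM in the others (-2.03 ± 0.38, SE; adjusted p = 0.139 in limma). The median of this type I list was thus near that of all genes, below the 1.27 of the Ifit, Mx and Oas members.

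Of 21 tested genes of the type II list, 3 were higher and 6 lower without overlap (23.2% and 25.7% of all genes), with a median of -0.14. In limma 0 passed, with 2 higher and 4 lower at an unadjusted p under 0.05 (9.10% and 6.80% of all genes). Gbp6, a guanylate-binding protein, had 29.59 and 57.91 FPKM in controls and 9.54 and 4.25 FPKM in the Cre-labelled libraries (-2.51 ± 0.53, SE; adjusted p = 0.15 in limma and 0.0372 with voom weights). Nlrc5, the activator of class I histocompatibility genes, had 29.58 and 32.53 FPKM and 15.05 and 9.69 FPKM (adjusted p = 0.205 in limma). Ifi30, a thiol reductase of the lysosomes of antigen-presenting cells, went the other way, with 10.27 and 43.11 FPKM and 214.53 and 141.29 FPKM (2.97 ± 0.67, SE; adjusted p = 0.159 in limma). Genes of the Gbp family lay on both sides of 0 in this list.

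**Figure D5:**
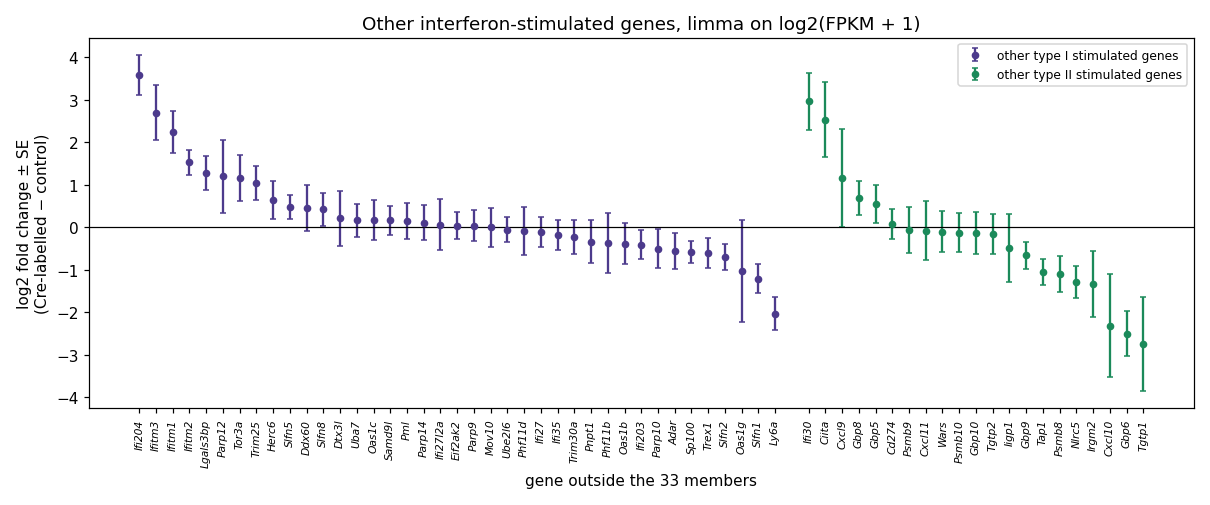
Log2 fold change (points) with its SE from limma (bars) of 39 type I and 21 type II stimulated genes outside the 33 members, ordered by size within each list. The type I list runs from -2.03 for Ly6a to 3.59 for Ifi204, and the type II list from -2.75 to 2.97 for Ifi30.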

How the data were processed

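The authors deposited 1 table of FPKM values per gene and library. Per the submitters' processing notes, HISAT, Bowtie2, RSEM and mm10 were used. Versions, settings and strand use are not given in the sources used here. Where transcripts are alike, RSEM divides their fragments by estimate. Gene identifiers matched GRCm38.p6, which carries mm10 coordinates, for 16183 genes, and 23 symbols that had become dates were restored from them. Genes averaging at least 1 FPKM were fitted on log2(FPKM + 1) by group alone (limma 3.58.1, R 4.3.3, trended empirical Bayes), with two-sided p-values adjusted by Benjamini-Hochberg. Fold changes are on that scale, which understates changes of low genes. A single gene in 4 libraries allows no exact permutation p below 0.33. Depth was estimated from the step of FPKM times transcript length in 10348 genes with 1 transcript of over 800 bases, at which 77.0% to 78.1% of values below 8 fragments lay within 0.2 of a whole fragment. Fragments recovered in this way entered a second fit with limma's voom (at least 10 fragments in all), added after the data were seen. T cell scaling divided each library by the geometric mean of the 23 T cell markers, taken after adding 0.1 FPKM to each. The fit was tested on simulated data.

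The members and lists were chosen with earlier results of these data known, and the named genes are all members by role, those without overlap in full (up to 5 per role by fold change), a fixed set of upstream genes (1 gene is not reported here) and up to 3 per other list by smallest unadjusted p. Other genes were chosen after their values were seen. Equal library numbers did not deviate together (correlation across genes 0) and were not treated as pairs. Protein sequences were not used here.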

Additional observations from a re-analysis of the deposited data

How the results depend on the processing

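In limma the call of 0 members was unchanged under a pseudocount of 0.1, no filter and a mean FPKM of at least 5. It was also unchanged under quantile or median-ratio scaling, no trend, a replicate block and voom weights. With the replicate block 5 of 32 members had an unadjusted p under 0.05 in limma, against 1888 of 12896 genes. Scaling to T cell genes called 25 members, 88 other pathway genes and 9572 of all genes, and moved the median of the Ifit, Mx and Oas families to 3.33 and turned that of the GTPases to 1.83. It also turned Gbp4 (1.25), Igtp (1.22), Irgm1 (2.01), Ifi47 (1.73), Zbp1 (1.46) and Irf1 (2.06) higher, all by less than the median of all genes (2.20).

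Over all genes, 7 were called in the main fit. The count fell to 0 when the filter or the trend was dropped, when the replicate block was added and when the pseudocount was 0.1. It was 4 when a mean of 5 FPKM was required. With voom weights 196 of 7544 genes (2.60%) were called. Of the 57 other pathway genes tested in that fit, 3 were called (Ifng, Gbp6 and Ifi204). The cause was not tested. With 1 library left out the GTPase median ran from -1.13 to -0.25 and Ifnar1 from -0.06 to 0.27. The lone library of a group is then assumed to vary like the other group. Values as low as those of Mx2 and Oasl1 rest on a handful of fragments, and whether depth limited their tests was not examined.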
